A study of Mus musculus with 2 samples.

Results

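Ribosome biogenesis and nucleolar genes were followed in 2 messenger RNA libraries of 3T3-L1 cells, a mouse preadipocyte line that turns into fat-storing adipocytes under hormones. The members were taken by gene symbol: names that start with Nop, Nol, Utp or Rrp and a digit, the RNA polymerase I genes Polr1a to Polr1e, and 19 nucleolar genes by name. The rule found 58 of the 24421 genes listed. It used no measured value. Of the 58, 3 are matched by name only and have other known roles: Nol3, a repressor of apoptosis, and Nol4 and Nol4l.

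The control library came from untreated adipocytes and the DF library from adipocytes given DF (DF-GA70), a mixture of several herbs, which was present until harvest. Both cultures were the same line (passages 10 to 13, strain background given as C57BL/6) and both received the same differentiation hormones, insulin at 1 µg/mL, dexamethasone at 0.25 µM and the phosphodiesterase inhibitor IBMX at 0.5 mM, for 2 days and then insulin alone. Neither the DF dose nor the harvest day is stated in the sources used here. With 1 library in each group, no value has a replicate error and no test between the conditions could be made.

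A ribosome is assembled in the nucleolus, where RNA polymerase I copies the ribosomal DNA into 1 long precursor RNA. Small nucleolar RNAs, each held in a protein particle (a snoRNP), guide chemical marks onto that precursor, while a large set of assembly factors fold it, cut it and join it with ribosomal proteins into a small and a large subunit. The pathway takes a large share of a growing cell's energy and is known to follow growth signals such as insulin, mTOR and the transcription factor Myc.

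Levels are the deposited values on a log2 scale, and a difference is DF minus control on that scale. The kit reads the 3' ends of messenger RNAs, so the values are not divided by transcript length. All 58 members were above 0 in both libraries, between 3.73 and 14.05. A gene was examined when the mean of its 2 values reached 8.18 (log2), the median of all non-zero values, a floor that favours neither direction. Of the 58 members, 36 passed and 22 did not. As a yardstick in place of replicates, each gene's difference was also set beside those of the 200 genes nearest in mean level, whose central 95% is given below as the range of nearest genes. That range mixes culture-to-culture variation with whatever DF did.

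Markers of the labelled cell type were present: all 8 mature adipocyte markers were examined and lay between 11.84 and 17.55 (log2) in both libraries. None of 6 macrophage markers in the files and none of 5 endothelial markers reached the floor, with highest values of 4.88 and 6.49 (log2). Adgre1, Kdr, Tek and Vwf were listed at 0 in both. The sequencing depth of the libraries is unknown. In bulk RNA, fewer cells that express a gene and less of its RNA in each cell cannot be told apart.

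Most ribosome biogenesis genes had similar levels in the control and DF libraries. Of 36 examined members, 31 (86.1%) lay within 1.5-fold, beside 81.9% of all 6324 genes examined. Nop58, Wdr12 and Pes1 were higher in the DF library by at least 1.5-fold (3 of 36, 8.33%; 8.65% of all examined genes), and Rrp7a and Nol9 were lower (2 of 36, 5.56%; 9.49% of all). The shares are near those of all genes. The median difference was 0.12 log2 units over the 36 members and 0.01 over all examined genes, and 22 of the 36 (61.1%) had a higher value with DF, as did 51.0% of all. The members' differences had an SD of 0.43 log2 units across genes, and those of all examined genes 0.47.

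The counts were also taken at other sizes and floors. At 2-fold, 1 member (Nop58) was higher and 0 were lower, where 1.58% and 2.26% of all examined genes were counted. At a smaller size, 0.32 log2 units, 11 of 36 members (30.6%) were higher and 6 (16.7%) lower, beside 23.2% and 22.6% of all. Among the 12 members with a mean level of at least 10, Pes1 was higher and Rrp7a lower at 1.5-fold, beside 6.42% and 6.95% of genes at that level. Just short of the 1.5-fold limit were Polr1d, 1.49-fold higher, and Npm1, 1.48-fold lower, and just past it Rrp7a, 1.53-fold lower. Over all 58 members without the floor, 7 were higher and 5 lower (18.3% and 15.9% of the 11744 genes above 0 in both), with a median of 0.16. The differences of 34 of the 36 examined members, and of 55 of all 58, lay inside the range of nearest genes, which leaves out 5% of those genes by its construction. The examined members outside it were Nop58 and Wdr12, and below the floor Rrp9.

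**Figure D1:**
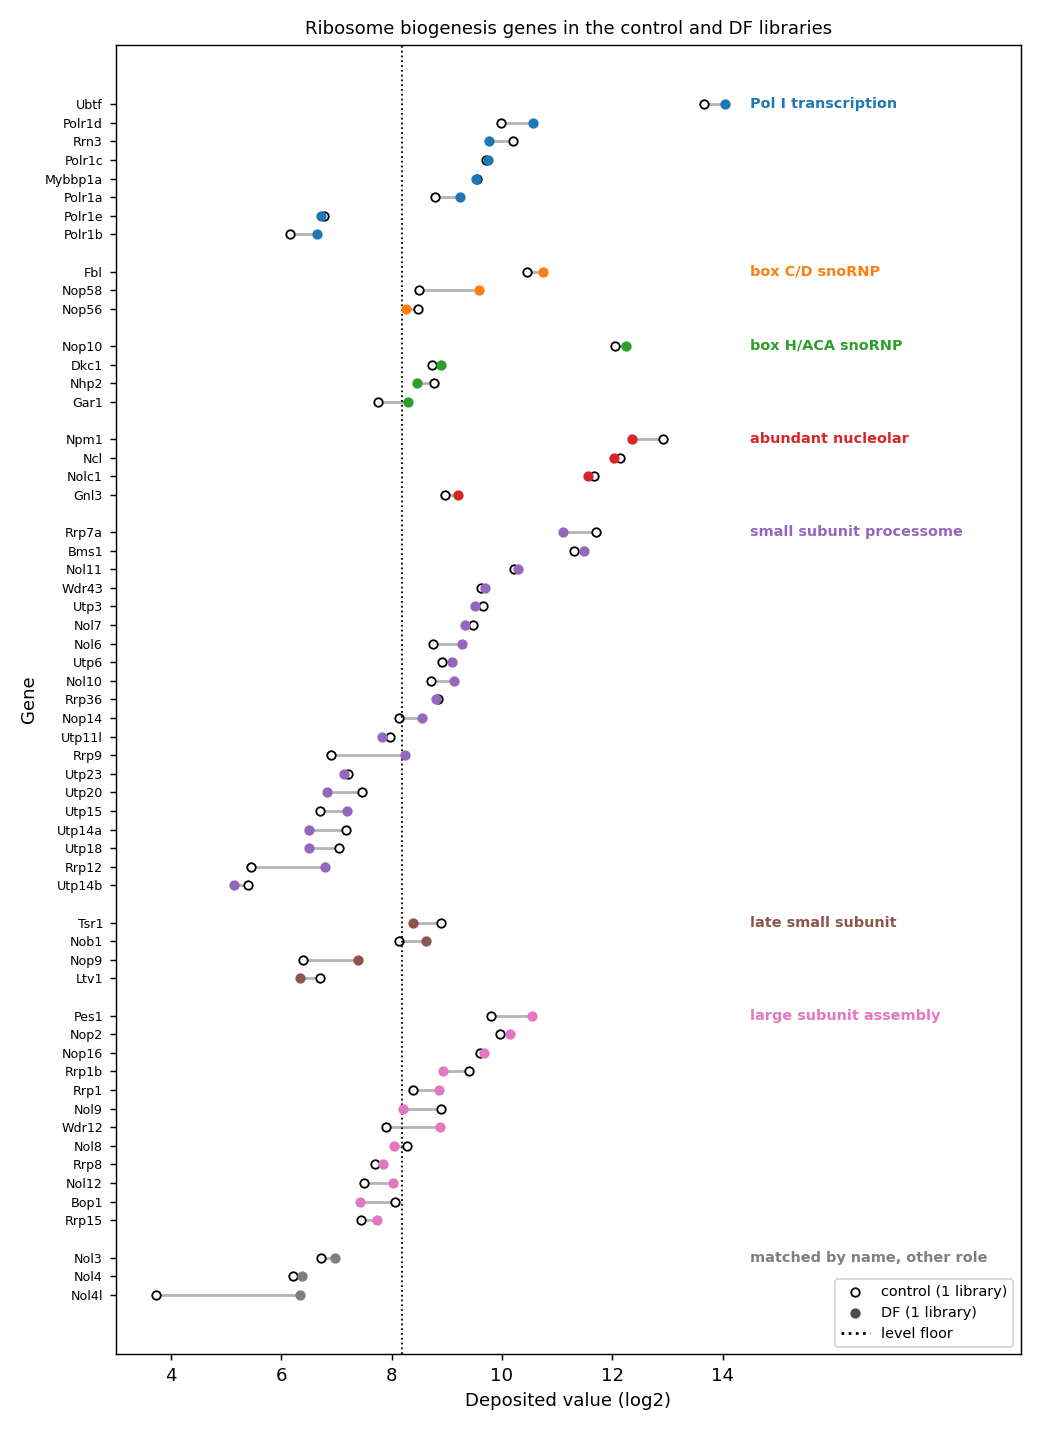
Deposited value (log2, x axis) of each of the 58 genes (y axis, grouped by role) in the control library (open points) and the DF library (filled points), with the level floor of 8.18 as a dotted line. Most pairs of points lie close together, and the widest gap at or above the floor is that of Nop58 (8.50 and 9.58).

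Transcription of ribosomal DNA was represented by 8 members, of which 6 were examined and 0 differed by 1.5-fold. Their median difference was 0.22 log2 units. Ubtf, the factor that holds ribosomal DNA in its active, open form, was at 13.66 in control cells and 14.05 in DF-treated cells (log2), 1.31-fold higher. It had the highest level of all members, and its DF value lies among the 140 highest values, which are the same in both sorted files (13.98 and above), so there it gives a rank rather than an amount. Polr1a, the largest subunit of RNA polymerase I, was at 8.79 and 9.23, a difference of 0.44, and Polr1d, a subunit shared with RNA polymerase III, at 9.99 and 10.56, a difference of 0.57. Polr1c, the other shared subunit, was at 9.70 and 9.74. The second largest subunit gene, Polr1b, was at 6.16 and 6.65, and Polr1e at 6.77 and 6.72, both below the floor.

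The regulators of the polymerase did not share the direction of Ubtf and Polr1a. Rrn3 (TIF-IA), which makes the polymerase competent to start and is a known target of growth signalling, was at 10.20 in control cells and 9.77 in DF-treated cells, a difference of -0.43. Mybbp1a, a nucleolar protein that restrains the transcription of ribosomal DNA, was at 9.55 and 9.53. The differences of all 6 examined genes of this group lay inside the range of nearest genes, which for Rrn3 was -0.81 to 0.85. Rn45s, the precursor of ribosomal RNA itself, was the highest gene in each library (20.73 in both), an equality of ranks that says nothing of its amount.

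Among the proteins of box C/D snoRNPs, the particles that guide ribose methylation, Nop58 differed more than its partners. Nop58, a core scaffold protein, was at 8.50 in control cells and 9.58 in DF-treated cells (log2), 2.11-fold higher. The range of its nearest genes was -1.17 to 1.01 and its difference of 1.08 exceeded that of 196 of the 200. Nop56, its paralog and partner in the same particle, was at 8.47 and 8.27, a difference of -0.21. Fbl (fibrillarin), the methyltransferase, was at 10.46 and 10.74, a difference of 0.28. The paralogs thus had nearly equal levels in the control library, and Nop58 had the higher one with DF. The Nop56 gene overlaps exons of Idh3b on the genome, and the transcript ends of Nop56 and Fbl have close copies elsewhere, so their reads are less certain than those of Nop58, for which neither was found.

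The box H/ACA proteins, whose particles guide pseudouridine formation, all lay within 1.5-fold between the libraries, in both directions. Nop10, the small core protein, was at 12.06 and 12.24 (log2), a difference of 0.18. Dkc1 (dyskerin), the pseudouridine synthase, was at 8.74 and 8.90, a difference of 0.16, and Nhp2 at 8.77 and 8.47, a difference of -0.30. Gar1, the fourth core protein, was at 7.75 and 8.31, a difference of 0.56 with a mean below the floor.

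Of the 4 abundant nucleolar proteins, 3 had lower values with DF and Gnl3 a higher one, all within 1.5-fold. Npm1 (nucleophosmin), a histone and ribosome chaperone, was at 12.92 in control cells and 12.35 in DF-treated cells (log2), a difference of -0.57, and 16 of its 200 nearest genes had a lower one. Ncl (nucleolin), which binds the nascent precursor, was at 12.15 and 12.03, and Nolc1 (Nopp140), a chaperone of snoRNPs, at 11.67 and 11.57. Gnl3 (nucleostemin), a GTP-binding protein of the nucleolus, was at 8.97 and 9.21, a difference of 0.24. The median of these 4 was -0.11 log2 units.

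The small subunit processome, the large particle that forms on the early precursor, holds 20 members, of which 11 were examined, 1 was lower by 1.5-fold and 0 were higher. Their median difference was 0.09 log2 units. Rrp7a, a structural component of the particle, was at 11.71 in control cells and 11.10 in DF-treated cells (log2), 1.53-fold lower, inside the range of nearest genes (-0.89 to 0.68). Its gene on chromosome 15 (83113433 to 83122801, minus strand, GRCm38) shares exon sequence with the end of Serhl on the other strand, and Serhl was at 11.69 and 11.08. The values of the pair differ by 0.02 in each library. Whether both genes were given the same reads was not tested, and whether counting used the strand is not stated in those sources. Of the genes that overlap a member, only Serhl lay within 0.1 log2 units of it in both libraries.

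The other examined processome genes differed by less. Bms1, a GTPase of the particle, was at 11.31 and 11.50 (log2), and Nol11, which links the particle to polymerase I transcription, at 10.23 and 10.29. Wdr43 was at 9.61 and 9.70, Utp3 at 9.65 and 9.52 and Nol7 at 9.47 and 9.33. Nol6 had the largest positive difference of the group, 0.53 (8.75 to 9.28), followed by Nop14 (0.41) and Nol10 (0.41). Utp6 and Rrp36 differed by 0.18 and -0.03.

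Below the floor, where the range of nearest genes is wide, 9 processome genes went both ways. Rrp9 (U3-55K), a protein of the U3 snoRNP, was at 6.91 in control cells and 8.25 in DF-treated cells (log2), 2.53-fold higher, and its difference exceeded that of 198 of the 200 nearest genes. It shares exon sequence with the more abundant Parp3 (9.60 and 9.40), which makes its reads less certain. Rrp12 was at 5.46 and 6.79, a difference of 1.34 inside a range of -1.95 to 1.69. Utp20 (-0.63) and Utp14a (-0.66) were lower by over 1.5-fold, inside their ranges. Utp14a and Utp14b are a parent gene and its retrocopy, and Utp14b, which shares exon sequence with Acsl3 on the same strand, was at 5.41 and 5.15. The remaining Utp11l, Utp15, Utp18 and Utp23 differed by -0.15, 0.48, -0.55 and -0.07.

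Of the late small subunit factors, which finish the particle in the cytoplasm or cut the last spacer, the 2 examined went opposite ways. Tsr1, a GTPase-like factor that blocks early entry into translation, was at 8.89 and 8.39 (log2), a difference of -0.50. Nob1, the nuclease that makes the mature end of 18S RNA, was at 8.14 and 8.62, a difference of 0.48. Each lay within 1.5-fold and inside its range of nearest genes. Nop9 (6.39 and 7.39) and Ltv1 (6.69 and 6.33) were below the floor, with differences of 1.00 and -0.36. Nop9 shares exon sequence with Cideb, at 4.52 and 6.48, and whether reads were shared was not tested.

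Large subunit assembly had 2 higher (28.6%) and 1 lower (14.3%) of 7 examined members at 1.5-fold, beside 8.65% and 9.49% of all examined genes. Their median difference was 0.20 log2 units, and 7 genes are too few to set this group apart. Pes1, Bop1 and Wdr12 form the PeBoW complex, which is needed to process the precursor of the large subunit RNAs. Wdr12 was at 7.90 in control cells and 8.88 in DF-treated cells (log2), 1.97-fold higher, and exceeded 198 of the 200 nearest genes. Pes1 (pescadillo) was at 9.80 and 10.54, 1.67-fold higher, which exceeded 194 of the 200 and lay inside their central range of -0.81 to 0.76. Bop1, the third partner, was at 8.07 and 7.43, a difference of -0.63 with a mean below the floor, inside its range of nearest genes (-1.19 to 1.27). Within this 1 complex Wdr12 and Pes1 were higher with DF, and the lower value of Bop1 is uncertain at that level. Wdr12 has a close copy of its transcript end in Pms1 (3.19 and 4.67) and shares exon sequence with Carf, which was at 10.39 and 9.94. Bop1 shares exon sequence with Mroh1, at 8.21 and 8.23. Whether reads were shared between these genes was not tested. Pes1 shares exon sequence with 4930556J24Rik, for which no value was used.

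Nol9, a polynucleotide kinase that works with Las1l at the spacer between the large subunit RNAs, was at 8.89 and 8.20 (log2), 1.61-fold lower and inside its range of nearest genes (-1.40 to 1.06). Nop2, a cytosine methyltransferase of 28S RNA, was at 9.96 and 10.15, and Nop16 at 9.60 and 9.68. Rrp1 and its paralog Rrp1b had differences of opposite sign, 0.47 (8.38 to 8.85) and -0.48 (9.40 to 8.93). Nol8, Rrp8, Nol12 and Rrp15, all below the floor, differed by -0.25, 0.15, 0.51 and 0.29.

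The genes matched by name that have other roles were all below the floor. Nol3 was at 6.73 and 6.98 and Nol4 at 6.22 and 6.38 (log2). Nol4l was at 3.73 and 6.33, the largest difference of the 58, inside a range of nearest genes of -2.72 to 2.66 at that low level.

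**Figure D2:**
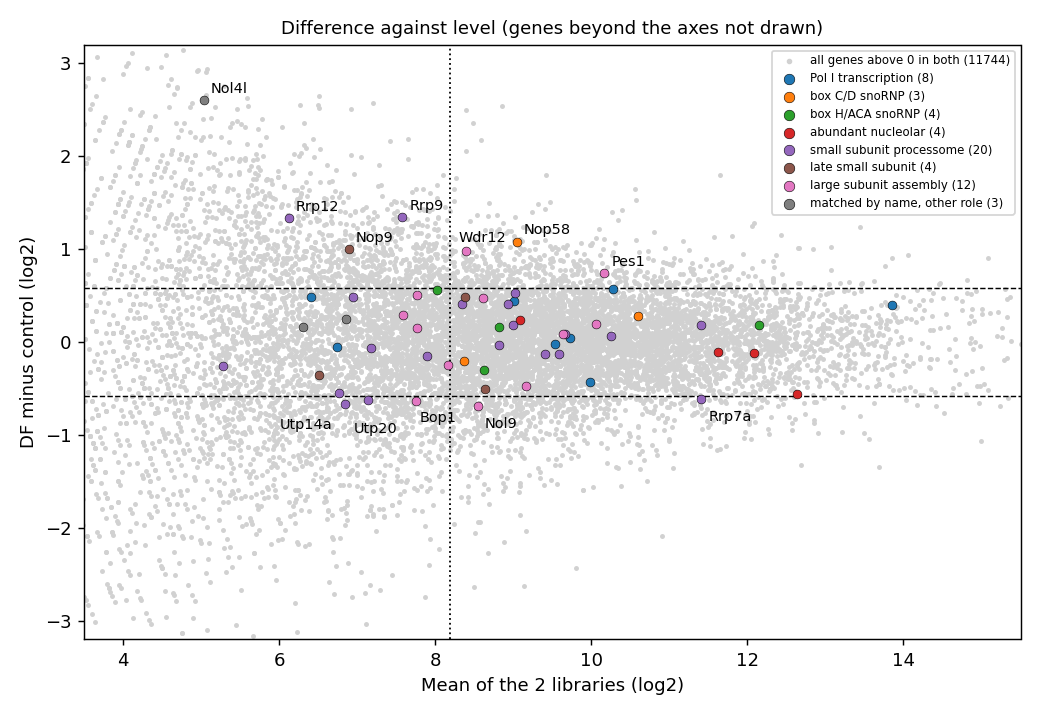
Difference between the libraries (DF minus control, log2, y axis) against the mean of both values (log2, x axis) for the 11744 genes above 0 in both (grey) and the 58 genes (coloured by role), with dashed lines at 1.5-fold and a dotted line at the floor of 8.18. Grey genes beyond the axes are not drawn. The cloud of all genes widens towards low levels, and the coloured points lie within it, with Nop58, Wdr12 and Rrp9 near its upper edge.

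Counts near the background were also found for other genes of ribosome assembly that the symbol rule does not take, from 7 lists of polymerase I factors, subunit assembly factors, the RNA exosome, RNase MRP and snoRNP assembly. Of 129 in the files 70 were examined, 6 were higher by 1.5-fold (8.57%) and 5 lower (7.14%), again near the shares of all genes, with a median of 0.08 log2 units. Processome genes had 3 of 16 higher and 0 lower. Among these, Wdr75 was 1.76-fold higher (8.14 to 8.96) and Cirh1a, the older symbol of Utp4, 1.69-fold higher (9.77 to 10.53). Large subunit factors had 2 of 29 higher, Ebna1bp2 (1.75-fold) and Rrs1 (1.58-fold), and 2 lower, Senp3 and Sdad1 (1.54-fold). Polymerase I factors had 0 of 7 higher and 1 lower, Taf1d (1.71-fold), a subunit of the promoter factor SL1. Besides Taf1d and Taf1a, the examined genes of this list were Polr2e, Polr2f, Polr2h, Polr2k and Polr2l, subunits shared with other RNA polymerases. Without the floor, 1 of 13 was higher (7.69%) and 4 lower (30.8%), beside 18.3% and 15.9% of all genes above 0 in both. Taf1b (-1.12) and Taf1c (-0.80), also of SL1, were among the lower ones, inside their ranges of nearest genes. Taf1d shares exon sequence with 4931406C07Rik (10.93 and 11.50) and Cep295 (6.57 and 4.67), which makes its reads less certain. The exosome list had 0 of 8 higher and 2 lower, C1d (1.88-fold) and Exosc1 (1.67-fold), and RNase MRP had 1 of 3 higher, Pop7 (1.52-fold). Neither of 2 late small subunit genes and none of 5 snoRNP assembly genes differed by 1.5-fold.

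Senp3 had the largest difference of these. Senp3, a protease that removes SUMO from Npm1 and from the large subunit factor Pelp1, was at 11.95 in control cells and 9.86 in DF-treated cells (log2), 4.26-fold lower, further down than any of its 200 nearest genes. It belongs to a complex with Pelp1, Tex10, Wdr18, Las1l and Nol9, whose other genes were looked up after its value was seen. Las1l was at 8.64 and 8.53, Wdr18 at 7.75 and 7.71, and Pelp1 at 7.11 and 7.26, near equal in the libraries. Tex10 was at 7.17 and 5.93, a difference of -1.24 below the floor and inside its range of nearest genes.

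**Figure D3:**
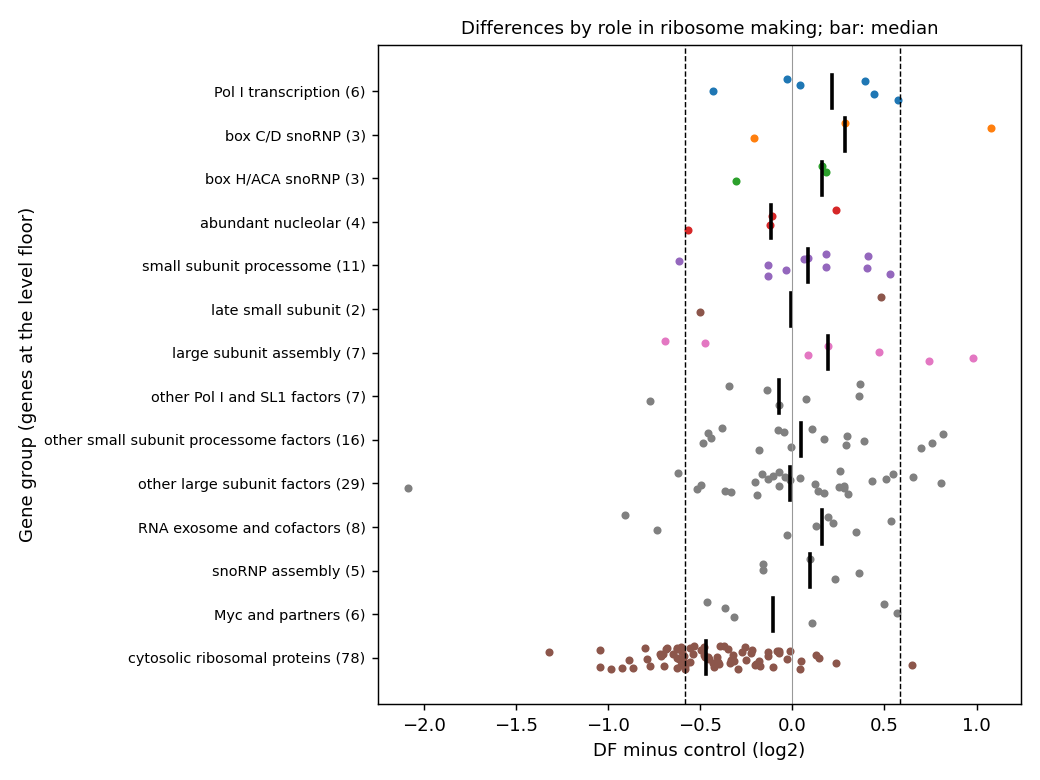
Difference between the libraries (DF minus control, log2, x axis) of each gene at the level floor, by role (y axis, number of genes in brackets), with the median of each group as a black bar and dashed lines at 1.5-fold. The assembly groups lie on both sides of 0, the ribosomal proteins mostly to the left, and the lone grey point near -2.09 is Senp3.

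The assembly factors and the ribosomal proteins they join to RNA had different medians. Of 78 cytosolic ribosomal protein genes examined, 29 (37.2%) had values lower by 1.5-fold with DF and 1 a higher one, with a median of -0.47 log2 units. Over all examined genes 9.49% were lower and 8.65% higher, with a median of 0.01, and of the biogenesis genes 2 of 36 were lower and 3 higher, with a median of 0.12. With 1 library a group this difference between the lists could not be tested. Many ribosomal protein genes are known to have processed copies among which reads can be split. Of this list only Rpl5 and Rpl11 were searched for close copies, and none was found, so any effect of such copies was not tested. Rpl5, which with Rpl11 carries 5S RNA into the large subunit, was at 12.44 and 11.84 (log2), 1.51-fold lower, and Rpl11 was at 9.57 and 9.50. Rpl5 shares exon sequence with Fam69a, at 10.94 and 10.58.

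Of the Myc and Max network, 6 of 11 genes were examined and 0 of these differed by 1.5-fold. Myc, which activates many ribosome biogenesis genes, was at 8.56 in control cells and 9.06 in DF-treated cells (log2), a difference of 0.50 inside the range of nearest genes (-1.04 to 1.15). Max, the partner of Myc, was at 11.15 and 10.69, and Mxi1, a repressor that competes for Max, at 11.67 and 12.24. Below the floor, Mnt, another partner of Max, was 1.70-fold higher with DF (7.53 to 8.30) and Mlxip 1.76-fold higher (7.34 to 8.16). Each lay inside its range of nearest genes. Mycl, also below the floor, went the other way, from 4.08 to 0. Cdkn2a, whose Arf protein binds Npm1 in the nucleolus, was at 14.16 and 13.92.

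Of the 36 examined members, 12 share exon sequence with another coding gene or have a close copy of their transcript end, which makes their reads less certain. Besides those named above these are Gnl3, Dkc1, Nhp2, Rrp1b, Tsr1, Nol7 and Mybbp1a.

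The members are spread over 20 chromosomes, and 7 of them hold 21 annotated small nucleolar RNAs inside their genes on the same strand. These were Nop56 (5), Nop58 (4), Ncl (3), Gnl3 (3), Wdr43 (3), Tsr1 (2) and Dkc1 (1). All 7 were examined, 1 (Nop58) was higher by 1.5-fold and 0 were lower, and their median difference was 0.09 log2 units beside 0.18 for the 29 other examined members. Nop58 lies on chromosome 1 at 59684971 to 59719044 on the plus strand and Nop56 on chromosome 2 at 130274430 to 130279313 on the plus strand (GRCm38, GENCODE vM21). Wdr12 lies on chromosome 1 at 60069785 to 60098645 (minus strand), Pes1 on chromosome 11 at 3963975 to 3980004 (plus strand) and Nol9 on chromosome 4 at 152039321 to 152061494 (plus strand).

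Promoters were read from RefSeq (GRCm38.p6), 250 bases before to 50 after the start of a gene, for the 48 members the table holds. The letters CACGTG, the E-box that Myc with Max and several other factors can bind and that reads the same on both strands, were in the promoters of 12 of 48 members (25%), beside 8.09% of all 27025 genes in the table and 13.0% of the 4902 examined genes found there. Among examined members the count was 8 of 32 (25%). GGGCGG, on either strand, was in 71.9% of the 32, close to the 74.3% of examined genes, and CCAAT in 28.1% beside 43.5%. A match describes letters only and is no evidence of binding. The 9 E-boxes of the 8 examined members are shown because Myc, a known activator of these genes, can bind those letters, with CACGTG in capitals and up to 12 bases on either side, 5′ to 3′ on the strand of the gene.
Nol11, chr11:107189407-107189436, minus strand: cttgagcgttcgCACGTGgtctagactcca
Nop2, chr6:125131811-125131840, plus strand: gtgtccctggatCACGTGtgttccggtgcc
Rrn3, chr16:13780639-13780668, plus strand: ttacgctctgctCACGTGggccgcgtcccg
Rrn3, chr16:13780472-13780501, plus strand: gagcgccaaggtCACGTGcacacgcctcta
Rrp7a, chr15:83122992-83123021, minus strand: gtgcctgtgcacCACGTGtcctggaactgg
Pes1, chr11:3963965-3963994, plus strand: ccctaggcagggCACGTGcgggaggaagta
Wdr43, chr17:71616220-71616249, plus strand: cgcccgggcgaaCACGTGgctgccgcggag
Tsr1, chr11:74898092-74898121, plus strand: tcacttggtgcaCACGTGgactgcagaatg
Mybbp1a, chr11:72441355-72441376, plus strand: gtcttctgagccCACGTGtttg

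The E-box began 43 bases before the start in Nol11, 60 in Nop2, 48 and 215 in Rrn3 and 208 in Rrp7a. In the others it lay after the start, from base 3 in Pes1, 18 in Wdr43, 25 in Tsr1 and 41 in Mybbp1a. The 8 genes did not share a direction. Pes1 was higher (difference 0.74) and Rrp7a lower (-0.61) by 1.5-fold, Tsr1 and Rrn3 differed by -0.50 and -0.43, Nop2 by 0.20, and Wdr43, Nol11 and Mybbp1a by 0.09, 0.06 and -0.03. Their median was 0.02 log2 units, beside 0.17 for the 24 examined members whose promoters in the table lack those letters. Nop58, Wdr12 and Nol9, the other members past 1.5-fold, are among those 24.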

How the data were processed

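The authors deposited log2 values, 1 value per gene symbol and library, and the file headers give only the symbol and the sample name. Bowtie2, edgeR and the mm10 build are named in the submitters' processing notes. Their versions, the read counter, its use of strand and the normalization are not stated in the sources used here. Sorted, the 140 highest values of each file are equal, and the authors may have brought the libraries to a common distribution, which would remove any difference in total output.

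Groups were taken from the treatment label. Differences are DF minus control with no pseudocount. With 1 library a group, no test was run, and lists are described by counts at 1.5-fold and medians beside the same over all examined genes. The members and lists were chosen with earlier results of these data known. Every member could be named; those given in full are the 2 highest of each role and all past 1.5-fold. Other genes named are up to 2 in each direction of each list, and Rn45s and Myc. Max, Mxi1, Mnt, Mlxip, Mycl, Cdkn2a, Rpl11, the partners of Senp3 and overlapping genes were chosen after their values were seen. So were Taf1a, Taf1b, Taf1c and the Polr2 genes. Ribosomal protein genes were taken by symbol.

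All 58 symbols matched GENCODE vM21 (GRCm38). Close copies were sought with BLAST 2.17.0 for the last 300 bases of the longest coding transcript (identity of at least 95% over 150 bases). Analyses used Python 3.11.15. The counting was run on simulated differences with known changes, set well past the threshold and far above the simulated noise. That run checks the code, and not how the counts behave in these data. Alternatives changed the floor, scaling, threshold and members.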

Additional observations from a re-analysis of the deposited data

How the results depend on the processing

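Against 2 members lower and 3 higher at 1.5-fold, the counts were 5 and 7 of 58 with no level floor, 1 and 1 of 12 at a mean level of at least 10, 6 and 11 at a threshold of 0.32 log2 units, 0 and 1 at 2-fold, and 1 and 1 of the 24 members with neither an overlapping coding exon nor a close copy. In the last of these Pes1, Wdr12 and Rrp7a were left out, and Nop58 and Nol9 remained past 1.5-fold. The remaining examined genes were not searched for overlaps and copies, so this last count has no matching share over all genes. For the other settings those shares are given above. With no level floor the shares rose as well, to 12.1% of members higher and 8.62% lower. Beside these, 18.3% and 15.9% of all genes above 0 in both were counted. Why the counts changed with the floor and the members was not tested. The counts were within 1.5 times of the main ones under a floor in either or both libraries and a pseudocount of 16. The same held for centring on the median or on the 200 nearest genes and for repeated quantile normalization. That repeat could change little where the files already share a distribution, as their 140 highest values do. Leaving out Nol3, Nol4 and Nol4l could not change the counts, because all 3 are below the floor. The median difference ran from 0.09 to 0.18 log2 units over all the settings named here. Under the pseudocount and the centring on the 200 nearest genes, the 36 examined members each moved by less than 0.1, and Nop58, Wdr12, Pes1, Rrp7a and Nol9 stayed past 1.5-fold. No paired analysis was possible because each group holds 1 library. Depth is unknown, so no counting error could be given, and genes below the floor are the least certain.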
